A study of Mus musculus with 76 samples.

Results

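The 7 genes described here are those that overlap 2 intervals of mouse chromosome 19 spanned by peaks that the study places inside known copy-number variants of C57BL/6 mice. The first interval is chr19:36893669-36906325 (mm39, 12657 bp) and the second chr19:37221871-37368412 (146542 bp), with 315545 bp between them. The members were chosen by the ChIP-seq signal of the same genotype contrast, since the intervals were drawn from its differential H3K4me3, H3K27ac and CTCF peaks, so the genotype values of those marks are given as a description, without a test. Of the 56923 genes in the count files 7 were members, namely Fgfbp3, Btaf1, 4931408D14Rik, Ide, Rpl10-ps6, Gm56673 and Kif11. Copy number itself was not measured here. The study shows E11.5 input tracks of both genotypes and proposes a duplicated signal in the variants and in a stretch beside the larger one.

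The samples were embryonic mouse diencephalon from hs754-humanized and wild type embryos at E11.5 and E17.5. In the humanized line, CRISPR with homology-directed repair had put the human sequence of enhancer hs754 in place of its mouse ortholog on chromosome 13, and the embryos were homozygous. The line was kept on the C57BL/6J background that the wild type shared, and the edit was not on chromosome 19. Each replicate pooled the diencephalon of 6 embryos (E11.5) or 3 embryos (E17.5) of 1 litter. RNA-seq had 4 replicates of each genotype and stage, or 16 samples. H3K4me3, H3K27ac and H3K27me3 ChIP-seq had 2 replicates per genotype for E11.5 and 3 for E17.5. CTCF ChIP-seq, of E17.5 only, had 3 per genotype.

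A stretch of DNA that is present in more copies gives proportionally more DNA fragments in any sequencing library, immunoprecipitated or not, and can give more RNA from a gene whose promoter and body it carries whole. The fold enrichment of a ChIP peak sets the reads at its summit against a local background, so it can move differently from the reads themselves. H3K4me3 marks active promoters, H3K27ac active promoters and enhancers, H3K27me3 genes held silent by Polycomb proteins, and CTCF is the DNA-binding protein that anchors chromatin loops.

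The members differ in how much of them lies inside the intervals. Ide (ENSMUSG00000056999, minus strand, chr19:37245688-37340729), the insulin-degrading enzyme, a zinc metallopeptidase that also cuts amyloid beta, lies wholly inside the second interval. So do the long non-coding RNA genes 4931408D14Rik (ENSMUSG00000120174, minus strand, chr19:37232068-37241537) and Gm56673 (ENSMUSG00000121027, minus strand, chr19:37363776-37364744). Rpl10-ps6 (ENSMUSG00000080885, minus strand, chr19:37272554-37273195), a processed pseudogene of a ribosomal protein gene, lies within Ide on the same strand, so its reads could come from either gene or from a near-identical copy. Fgfbp3 (ENSMUSG00000047632, minus strand, chr19:36894950-36897147), which encodes a secreted FGF-binding protein, lies wholly inside the first interval. For Btaf1 (ENSMUSG00000040565, plus strand, chr19:36903472-36991455), which encodes the ATPase that takes TBP off promoters, only the promoter and first 3.24% of the gene lie inside. For Kif11 (ENSMUSG00000012443, plus strand, chr19:37364799-37410307), the kinesin motor that pushes the poles of the mitotic spindle apart, only the promoter and first 7.94% lie inside.

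The promoters inside the intervals differ in base composition. The 250 bases before the start of 3 protein-coding members, read 5′ to 3′ on the gene's strand from GRCm39 with CpG sites in capitals, are shown because these windows lie under the H3K4me3 peaks.
Fgfbp3 promoter, chr19:36897148-36897397 (minus strand): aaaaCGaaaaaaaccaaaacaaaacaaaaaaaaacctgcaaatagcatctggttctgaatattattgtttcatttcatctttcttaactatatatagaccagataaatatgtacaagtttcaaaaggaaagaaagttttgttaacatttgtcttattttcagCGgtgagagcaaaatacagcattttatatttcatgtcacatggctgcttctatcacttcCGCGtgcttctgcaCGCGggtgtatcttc
Btaf1 promoter, chr19:36903222-36903471 (plus strand): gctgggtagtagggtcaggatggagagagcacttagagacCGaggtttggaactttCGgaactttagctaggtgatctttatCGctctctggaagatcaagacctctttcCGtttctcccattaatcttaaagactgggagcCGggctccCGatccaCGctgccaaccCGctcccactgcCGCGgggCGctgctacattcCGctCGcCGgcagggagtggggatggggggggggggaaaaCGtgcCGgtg
Kif11 promoter, chr19:37364549-37364798 (plus strand): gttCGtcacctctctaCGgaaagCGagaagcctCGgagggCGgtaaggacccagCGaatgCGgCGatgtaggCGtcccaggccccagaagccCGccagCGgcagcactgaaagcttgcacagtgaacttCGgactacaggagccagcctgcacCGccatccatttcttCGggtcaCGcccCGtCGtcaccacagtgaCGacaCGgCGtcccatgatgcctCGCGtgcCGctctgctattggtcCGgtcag

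The Fgfbp3 window held 6 CpG sites at 32.8% GC, the Btaf1 window 16 at 58.8% and the Kif11 window 24 at 63.2%. The window of Ide, which is not printed because other Ide transcripts place it in an exon, held 34 at 73.2%. Over 21770 protein-coding genes the median window held 8 CpG sites at 53.2% GC, and the 90th percentile was 23 sites, so Ide and Kif11 lay above it. The Btaf1 window overlaps an exon of the non-coding gene Gm59387 and the Kif11 window an exon of Gm56673, which is transcribed the other way.

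The RNA libraries held 16414369 to 24272569 reads counted on genes (median 19300234). Wild type replicate 1 at E17.5 stood apart. Its long genes were low: the median log2 level of the 4029 genes with the longest exonic sequence, relative to the stage mean and to all shorter genes, was -0.52 against -0.07 to 0.21 in the other E17.5 libraries and -0.20 to 0.23 at E11.5. This long-gene index moved with the long members: its within-group correlation over the 16 libraries, which share depth and preparation, was 0.95 for Btaf1, 0.90 for Kif11, 0.82 for Ide and -0.84 for the short Rpl10-ps6. The 8 diencephalon marker genes were detected in every library, and no marker gene of any cell type list was called for genotype. The summed microglia markers at E17.5 ranged from 18.5 to 49.9 CPM (counts scaled to a library size of 1e6) in wild type and 15.0 to 18.9 CPM in humanized libraries, and the red blood cell markers at E11.5 from 1228 to 2684 CPM against 2234 to 3885 CPM. The 49.9 CPM was wild type replicate 1, and the next wild type library had 22.1 CPM. That replicate was also the highest E17.5 library for endothelium markers (250 CPM, next 160 CPM) and red blood cell markers (977 CPM, next 506 CPM). The part of these marker values in the results below was not tested. Fits with the long-gene index as a covariate are given with the alternatives at the end.

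At E17.5, Ide, Btaf1 and 4931408D14Rik were higher in every humanized library than in every wild type library. Ide stood at 52.6, 90.6, 73.6 and 99.4 CPM in wild type replicates 1 to 4 and at 192, 193, 134 and 165 CPM in the humanized replicates. The means were 79.1 ± 20.6 and 171 ± 27.7 CPM (SD, n = 4), a ratio of 2.16. The lowest humanized library lay above the highest wild type one, and the means differed by more than the SD of either group.

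Btaf1 at E17.5 stood at 24.7, 86.1, 72.3 and 89.2 CPM in wild type and at 119, 148, 119 and 140.2 CPM in humanized replicates. The means were 68.1 ± 29.9 and 132 ± 15.0 CPM (SD, n = 4), a ratio of 1.93. Wild type replicate 1, the library with low long genes, was the lowest, and the other 3 wild type libraries still lay under every humanized one.

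4931408D14Rik had 0, 10, 6 and 15 reads in wild type and 36, 45, 38 and 38 in humanized replicates at E17.5, or 0.369 ± 0.283 and 2.30 ± 0.351 CPM (SD, n = 4). Counted on its own strand alone, it had 0, 10, 6 and 9 reads against 12, 16, 15 and 16. Of its reads, 62.4% came from the other strand in humanized and 19.4% in wild type libraries at E17.5, the wild type share being 6 reads of 1 library. At E11.5 the shares were 85% in humanized and 87.5% in wild type libraries. The unstranded count holds reads of both strands, and the plus-strand gene Gm59121, which was not among the counted genes, overlaps the start of 4931408D14Rik. Which gene the reads came from was not tested.

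These 3 of 7 members stood against 0.437% of the 18763 genes tested at E17.5 with every humanized library above every wild type one. Of them, 4931408D14Rik passed edgeR's filter on low counts through its humanized libraries, and was too low for the test between stages in wild type. The filter thus favoured its place in this count and its rank below. In edgeR's quasi-likelihood test the log2 fold changes were 1.11 (SE 0.23) for Ide, 0.95 (SE 0.33) for Btaf1 and 2.60 (SE 0.58) for 4931408D14Rik. By unadjusted p-value of edgeR's test over all genes, Ide ranked 1 of 18763, 4931408D14Rik ranked 4 and Btaf1 ranked 27, where 0.288% of all genes were higher at an unadjusted p under 0.05. None passed the adjustment over all genes, with edgeR adjusted p = 0.808 for each, and 0% of all genes were called. With DESeq2 as an alternative, 4931408D14Rik passed (adjusted p = 0.0189), against 0.00268% of the 37247 genes it gave an adjusted p, and Ide had an adjusted p of 0.0679. Without wild type replicate 1 the log2 fold changes were 0.95 for Ide, 0.67 for Btaf1 and 2.19 for 4931408D14Rik. With reads of its own strand alone, that of 4931408D14Rik was 1.48.

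The other members overlapped between genotypes at E17.5. Fgfbp3 lay at 34.2 to 56.9 CPM in wild type and 42.8 to 55.3 CPM in humanized libraries (log2 fold change 0.12, SE 0.20). Kif11 lay at 7.21 to 23.2 and 17.6 to 25.2 CPM (0.36, SE 0.31), and at 0.097 on the log2 scale without wild type replicate 1. Gm56673 had 6 to 16 reads against 14 to 22 (0.80, SE 0.40), and Rpl10-ps6 lay at 2.07 to 4.13 and 3.04 to 5.06 CPM (0.36, SE 0.29). All 7 members had a log2 fold change above 0 and their median was 0.80, against a median of -0.03 over all genes, of which 47.5% were above 0. For 4931408D14Rik the filter on low counts favoured this direction. The members' median was 0.67 without wild type replicate 1. In these bulk samples, more cells that express a gene and more RNA per cell cannot be told apart.

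At E11.5, Gm56673 was the member whose genotypes did not overlap. It had 19, 24, 14 and 17 reads in wild type and 33, 49, 28 and 55 in humanized replicates, or 0.911 ± 0.274 and 1.88 ± 0.409 CPM (SD, n = 4), a ratio of 2.06. This was 1 of 6 members tested, against 1.34% of the 17816 genes tested with every humanized library above every wild type one. Its log2 fold change was 1.03 (SE 0.27), ranked 22 of 17816 by p, and it missed the adjustment over all genes (edgeR adjusted p = 0.577). Gm56673 starts beside Kif11, on the other strand.

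Ide at E11.5 stood at 149, 83.6, 118 and 88.7 CPM in wild type and 124, 138, 142 and 187 CPM in humanized replicates. The groups overlapped through wild type replicate 1, and the log2 fold change was 0.41 (SE 0.19, edgeR adjusted p = 0.577). Btaf1 lay at 47.4 to 88.9 and 50.3 to 107 CPM (0.10, SE 0.25), Kif11 at 61.2 to 161 and 60.9 to 128 CPM (-0.25, SE 0.30) and Fgfbp3 at 47.0 to 62.0 and 52.2 to 74.2 CPM (0.18, SE 0.15). The sign for Btaf1 and for Kif11 changed with a single library left out, so no direction is read from either. Rpl10-ps6 lay at 4.65 to 8.70 and 6.72 to 9.39 CPM (0.40, SE 0.20). 4931408D14Rik had 1 to 8 reads against 7 to 14 and was too low for the test.

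At E11.5, 5 of the 6 tested members had a log2 fold change above 0, with a median of 0.29 against 0.00 over all genes. No member was called, 1 had an unadjusted p under 0.05 against 3.06% of all genes that were higher at that level, 0% of all genes were called, and DESeq2 called 0 members and 0.00581% of the genes it tested. The genotype difference was larger at E17.5 than at E11.5 by 0.68 (SE 0.31) on the log2 scale for Ide, but the interaction was not called (edgeR adjusted p = 0.462), as for 0% of all 20234 genes. Of the members, 1 of 7 had an unadjusted interaction p under 0.05, where 2.24% of all genes did in that direction.

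**Figure D1:**
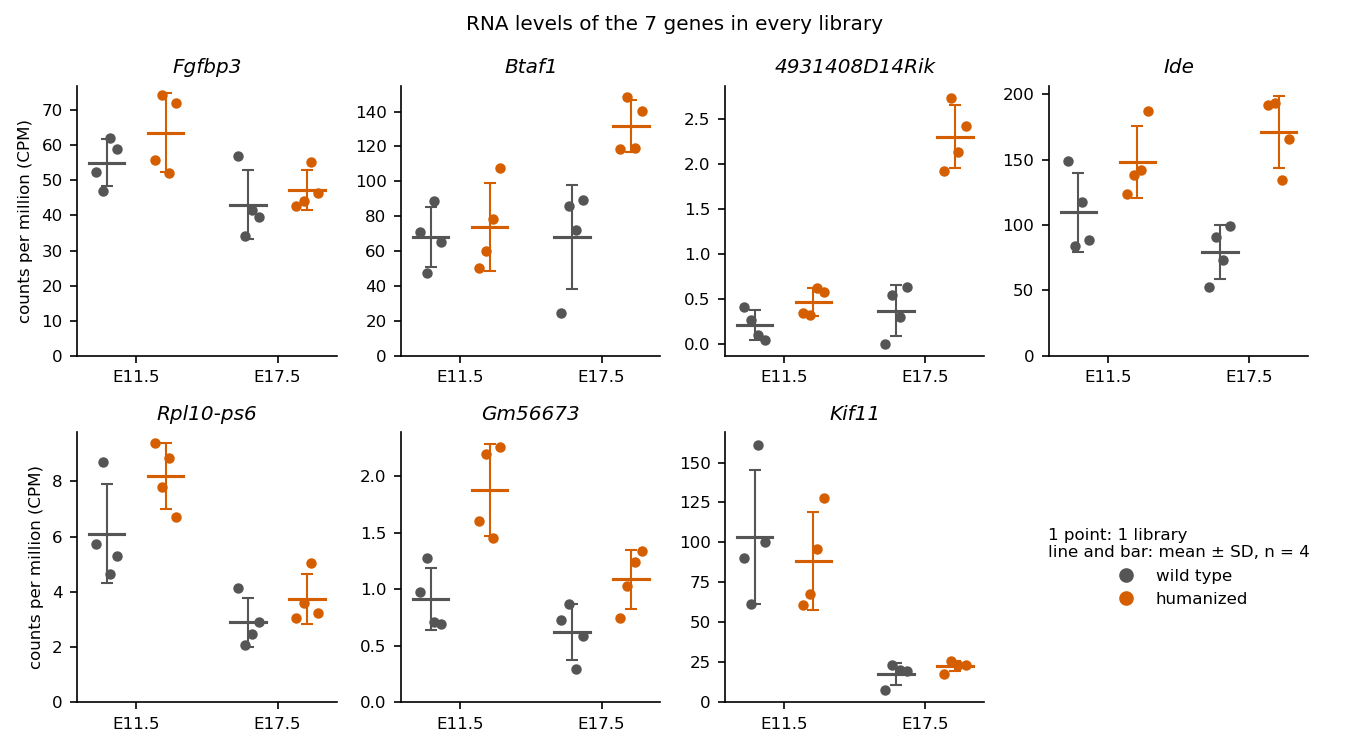
RNA level of each of the 7 genes in every library, in CPM on the vertical axis, by stage and genotype on the horizontal axis, with the mean and SD of 4 libraries. At E17.5 the humanized points of Ide (134 to 193 CPM), Btaf1 (119 to 148 CPM) and 4931408D14Rik lie above all wild type points, while Fgfbp3, Kif11, Gm56673 and Rpl10-ps6 overlap.

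Per kilobase of exonic sequence, which allows levels to be compared between genes, Fgfbp3 was the highest member in wild type E17.5 libraries at 22.5 ± 5.09 CPM per kb (SD, n = 4). Ide (7.12 ± 1.86), Btaf1 (5.79 ± 2.54) and Rpl10-ps6 (4.51 ± 1.39) followed, where Btaf1 lay within its SD of both others and Ide and Rpl10-ps6 differed by more than the SD of either. Kif11 (1.94 ± 0.783), Gm56673 (0.643 ± 0.252) and 4931408D14Rik (0.0973 ± 0.0748) were lower, each below the one before by more than the SD of either. In humanized E17.5 libraries the levels were 24.6 ± 2.92 CPM per kb for Fgfbp3, 15.4 ± 2.496 for Ide and 11.2 ± 1.28 for Btaf1. The order of the members was the same in both genotypes at that stage.

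Between stages, which the choice of the members did not use, Kif11 and Rpl10-ps6 fell in wild type diencephalon. The log2 change from E11.5 to E17.5 was -2.59 (SE 0.40, edgeR adjusted p = 0.000281) for Kif11 and -1.08 (SE 0.28, adjusted p = 0.00794) for Rpl10-ps6. That is 2 of the 6 members tested, where 26.7% of all 18583 genes were called lower and 29% higher. Ide (-0.48, SE 0.26), Fgfbp3 (-0.37, SE 0.20), Gm56673 (-0.55, SE 0.39) and Btaf1 (-0.01, SE 0.36) did not pass. Without wild type replicate 1 of E17.5, Fgfbp3 also passed, at -0.54 (edgeR adjusted p = 0.00296).

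Genes that work with the members showed no genotype call. Of the 20 mitotic spindle genes taken with Kif11, 0 were called at either stage, 1 had an unadjusted p under 0.05 at E11.5 and 0 at E17.5. The members of the list with the largest change at E17.5 were Aurka (-0.58, SE 0.33) and Kif18b (-0.47, SE 0.32), a spindle kinase and a motor of growing microtubule ends. All 20 were called lower at E17.5 than at E11.5 in wild type, with a median log2 change of -3.49, as Kif11 was.

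Of the 15 peptidase and insulin-signalling genes taken with Ide, 0 were called for genotype at either stage and 1 (E11.5) and 0 (E17.5) had an unadjusted p under 0.05. Igf1 (0.40, SE 0.32) and Igf2 (-0.35, SE 0.19), both growth factors related to insulin, had the largest values at E17.5. Of the 14 tested between stages in wild type, 3 were called higher and 5 lower. Of the 18 TBP and TFIID genes taken with Btaf1, 0 were called for genotype and 0 had an unadjusted p under 0.05 at either stage, with Taf6 at -0.53 (SE 0.30) and Drap1, a partner of the TBP repressor Dr1, at -0.48 (SE 0.34). Between stages 1 was called higher and 9 lower. Of the 17 FGF ligands, receptors and binding proteins taken with Fgfbp3, 14 were tested at E17.5 and 0 were called or had an unadjusted p under 0.05. Fgf17 had -1.11 (SE 0.61) and Fgfbp1, the other secreted FGF-binding protein, -0.61 (SE 0.30). Between stages 7 were called higher and 5 lower of 14. Beside the stage counts of these lists, 29% of all 18583 genes were called higher and 26.7% lower between stages in wild type. DESeq2 also called 0 genes of these lists for genotype.

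The genes around the intervals were compared in the same fit. Of the genes within 1 Mb, 18 were tested at the earlier stage and 16 at the later, and 0 were called at either with edgeR or DESeq2, while 2 and 0 had an unadjusted edgeR p under 0.05. Their log2 fold changes ran from -0.62 to 0.27 (median -0.25) at E11.5 and from -0.50 to 0.38 (median 0.10) at E17.5. Between the intervals lie Cpeb3, which encodes a translational regulator, at 0.38 (SE 0.28) and Marchf5, a mitochondrial ubiquitin ligase gene, at 0.05 (SE 0.15) at E17.5. On the outer sides, Tnks2, a tankyrase gene 22698 bp from the first interval, had 0.30 (SE 0.29), and Hhex, a homeobox gene 54846 bp from the second, had -0.20 (SE 0.34). At E11.5 the 4 had -0.25 (SE 0.27), -0.03 (SE 0.08), -0.37 (SE 0.21) and 0.22 (SE 0.18) in that order. The E17.5 values of Ide, Btaf1, 4931408D14Rik and Gm56673 lay above the highest neighbour, as did those of Gm56673, Ide and Rpl10-ps6 at E11.5.

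**Figure D2:**
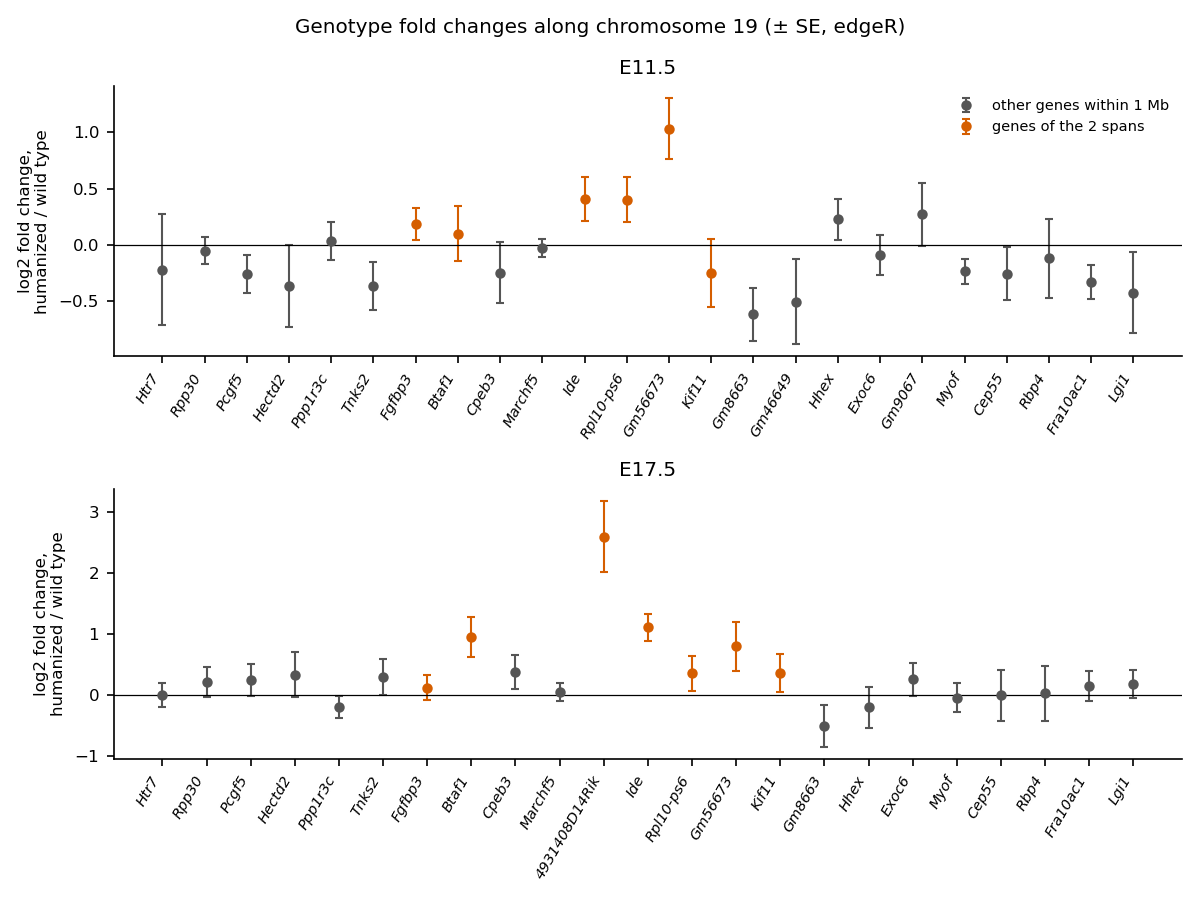
Log2 fold change, humanized over wild type, with its SE (edgeR, 4 against 4 libraries) for each tested gene within 1 Mb, in order along chromosome 19, at E11.5 (top) and E17.5 (bottom). At E17.5 Ide (1.11), Btaf1 (0.95), 4931408D14Rik (2.60) and Gm56673 (0.80) lie above every neighbour, whose highest value is 0.38.

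Over the 16 RNA samples, after the mean of each stage was taken off, the genes with levels most like Ide outside the members were Xpnpep3 (r = 0.79), Prdm1 (0.78), Fan1 (0.77), Nxpe2 (0.76) and Mgat2 (0.76), each on another chromosome. Among members, r to Ide was 0.85 for Btaf1, 0.55 for Gm56673, 0.54 for Kif11, 0.11 for Fgfbp3 and 0.11 for Rpl10-ps6. The median r over 16579 genes was -0.10 and the 95th percentile 0.57. Xpnpep3 also had an r of 0.87 with the long-gene index, against 0.59 for Ide.

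The reads on the opposite strand, which the counting files give in a column of their own, were examined after these values were seen. Fgfbp3 at E11.5 had 51, 36, 38 and 21 such reads in wild type and 121, 147, 174 and 210 in humanized replicates. The groups did not overlap, as for 1.49% of the 5713 genes tested, and the opposite strand gave 3.19% of the gene's reads in wild type and 11.7% in humanized libraries. The log2 fold change was 2.04 (SE 0.25, edgeR adjusted p = 0.00055), and Fgfbp3 was the single gene called, or 0.0175% of those tested. With reads of its own strand alone, the log2 fold change of Fgfbp3 at that stage was 0.05.

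At E17.5 the opposite strand of Fgfbp3 had 15, 15, 24 and 15 reads against 24, 17, 26 and 20, which overlapped (0.55, SE 0.37, edgeR adjusted p = 0.994). The opposite strand of 4931408D14Rik had 0, 0, 0 and 6 reads in wild type and 24, 29, 23 and 22 in humanized replicates at E17.5. The opposite strand of Ide had 1, 1, 2 and 12 reads against 30, 40, 30 and 15. Both ranked first and next by p of the 6100 genes tested (log2 fold change 4.21, SE 0.78, and 3.101, SE 0.63), without passing the adjustment (edgeR adjusted p = 0.522 and 0.624). Both passed the filter on low counts through their humanized libraries, which favoured these ranks. Groups that did not overlap made up 0.754% of genes, and 0% of genes were called.

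**Figure D3:**
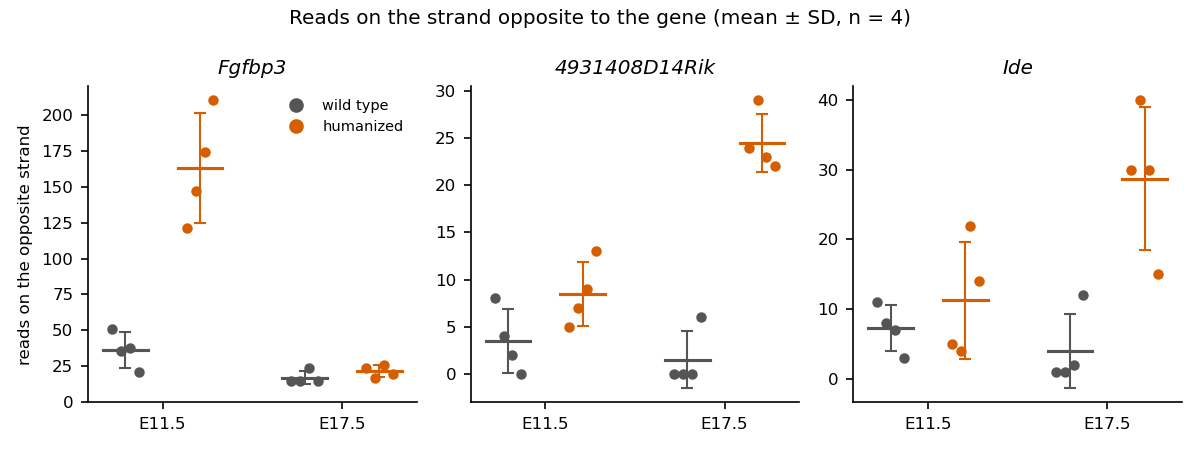
Reads counted on the strand opposite to Fgfbp3, 4931408D14Rik and Ide in every library, by stage and genotype, with the mean and SD of 4 libraries. The humanized libraries of Fgfbp3 at E11.5 lie at 121 to 210 reads and the wild type ones at 21 to 51.

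Of the ChIP-seq peaks, 4 H3K4me3 regions lay over the intervals at each stage, at the starts of Fgfbp3, Btaf1, Ide and Kif11, and all were called in every replicate. Column 7 of a peak list is the authors' fold enrichment at the summit over the local background. The summit pileup and the local background, each divided by the genome-wide background of its list, were recovered from the peak columns. The intervals come from differential peaks that the study called on read counts of these same ChIP libraries, so all of these values are a description.

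At E17.5 the Btaf1 promoter had column 7 values of 63.1, 69.7 and 69.1 in wild type and 44.1, 45.9 and 37.5 in humanized replicates. Its summit pileup was 92.4, 107 and 90.6 against 126, 116 and 109.5 times the genome-wide background. Its local background was 1.17, 1.19 and 1 against 2.52, 2.19 and 2.60 times that level. The enrichment was thus lower while the reads at the summit and the background around it were higher in the humanized lists.

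The Ide promoter at E17.5 had column 7 values of 35.3, 65.6 and 56.0 in wild type and 56.5, 53.5 and 33.6 in humanized replicates, which overlapped. Its pileup was 93.0, 101.1 and 88.7 against 124, 110.9 and 108.9, with no overlap. A log2 ratio here is the difference between the genotypes' mean log2 values. Over the 4 promoters column 7 had a median log2 ratio of -0.28 and was lower without overlap in 2 of 4 (Fgfbp3, -0.42, and Btaf1, -0.67), against 8.5% of 18897 regions of the genome. The pileup had a median log2 ratio of 0.28 (0.26 to 0.36), higher without overlap in 4 of 4, against 0.445%. The background had a median of 0.69, higher without overlap in 2 of 4, against 4.48%. Within 1 Mb outside the intervals the medians were -0.06 for column 7, -0.08 for pileup and -0.08 for background.

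At E11.5 the same 4 promoters gave a median log2 ratio of -0.29 in column 7, with 4 of 4 lower without overlap against 21% of 18846 regions, and 0.46 in local background, with 4 of 4 higher against 17.4%. The pileup differed less, with a median of 0.09 and 1 of 4 higher without overlap (Fgfbp3) against 6.81%. With 2 replicates a genotype, regions without overlap were common across the genome. The largest column 7 ratio at E11.5 was at Fgfbp3, with 51.8 and 61.5 in wild type and 41.5 and 46.0 in humanized replicates.

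**Figure D4:**
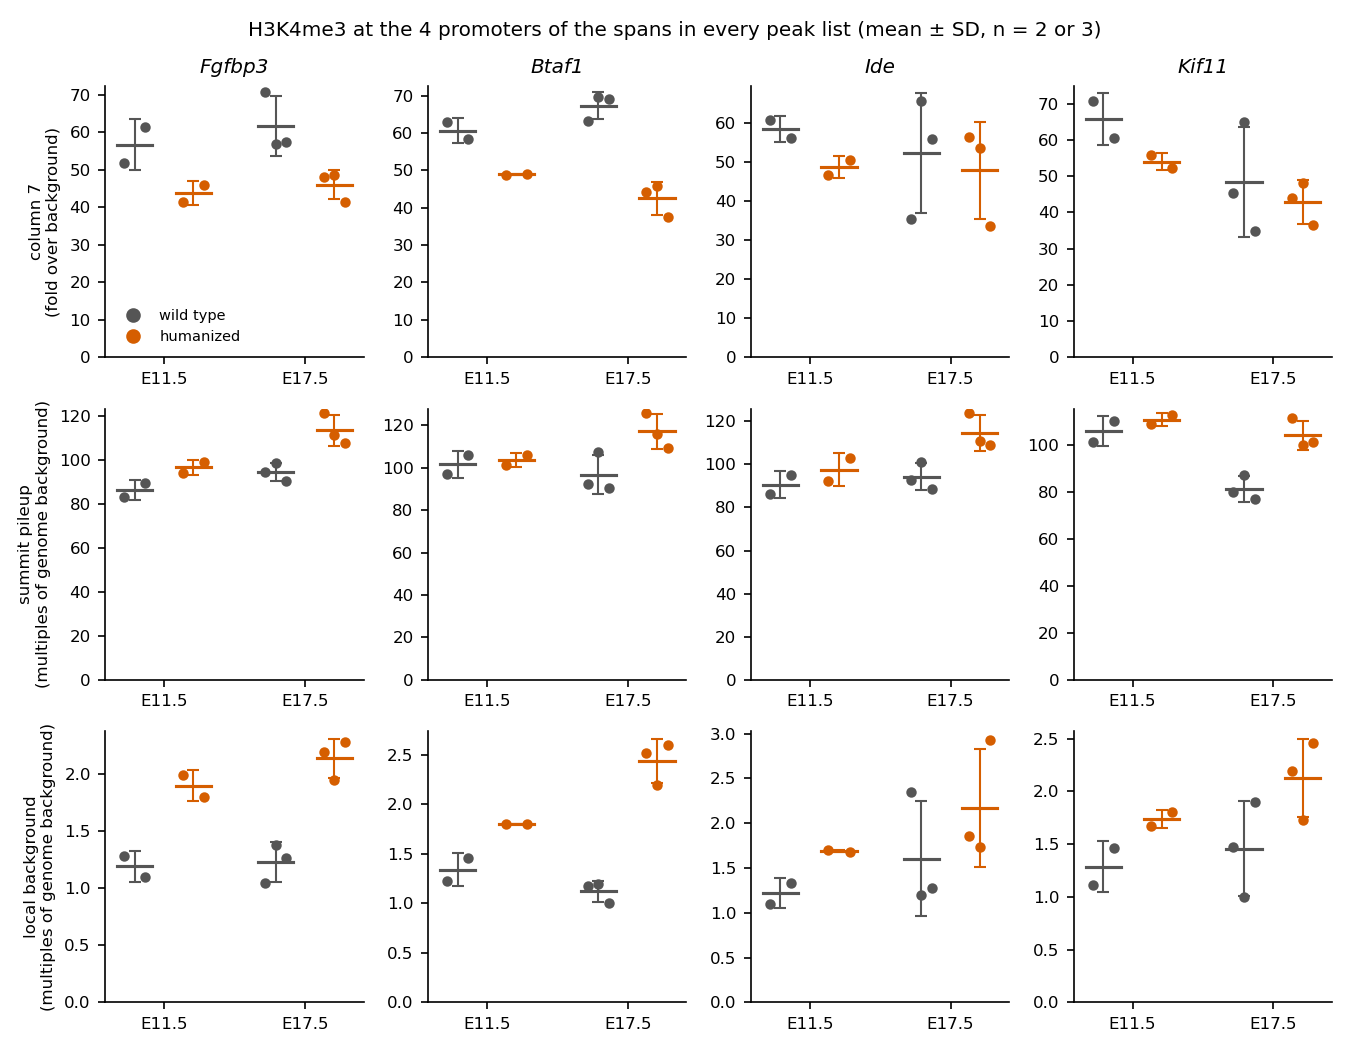
H3K4me3 at the promoters of Fgfbp3, Btaf1, Ide and Kif11 in every peak list, by stage and genotype, with the mean and SD of 2 or 3 lists. The rows give column 7 and its recovered parts, all in multiples of a background: at E17.5 the summit pileup is higher in every humanized list at all 4 promoters, while column 7 at Btaf1 lies at 37.5 to 45.9 in humanized and 63.1 to 69.7 in wild type lists.

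H3K27ac was called in every replicate at the same 4 promoters. At E11.5 the Ide promoter had a summit pileup of 21.0 and 27.2 in wild type and 46.2 and 40.7 in humanized replicates, in multiples of the genome-wide background. Its column 7 was 10.1 and 13.9 against 13.2 and 10.6, which overlapped. Over the 4 promoters the median log2 ratio was 0.87 for pileup, 0.66 for background and 0.24 for column 7. The pileup was higher without overlap in 4 of 4 and column 7 in 2 of 4, against 55.6% and 32.1% of 19469 regions. Over all regions the median was itself 0.26 for pileup and 0.17 for column 7, so the column 7 median of the promoters was near the list-wide value.

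At E17.5 the Ide promoter had H3K27ac column 7 values of 39.1, 43.7 and 36.0 in wild type and 26.6, 26.99 and 22.8 in humanized replicates, the 1 of 4 promoters that was lower without overlap, against 14% of 31816 regions. The local background was higher without overlap in 1 of 4 against 4.96%. Medians over the 4 promoters were -0.31 for column 7, 0.33 for pileup and 0.74 for background. Over all regions the medians were -0.24, -0.21 and 0.01, so the column 7 median of the promoters was near the list-wide value. Humanized replicate 3 had the weakest list of that stage, with 47132 peaks against 62720 to 77419 in the others, and 0 of 4 promoters had a higher pileup without overlap, against 0.251% of regions. Outside promoters, a peak 1315 bp from the start of 4931408D14Rik had a summit pileup of 9.45, 8.71 and 8.22 in wild type and 15.0 and 13.7 in humanized replicates 1 and 2, and was not called in replicate 3.

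CTCF had 14 regions over the intervals at E17.5, of which 6 were called in every replicate. The strongest lay 883 bp from the start of 4931408D14Rik, between that gene and Ide, and one in an intron of Ide was the only one of the 6 whose 200 bases around the summit held the core CTCF motif searched for on either strand, that is CCA, then AG, then GGC, with 2 bases of any kind after CCA and 2 after AG. The motif was in 34.7% of 41658 such windows of the genome and in 2.10% of promoter windows, and in none of the 7 members' promoters. Both windows are printed on the plus strand of GRCm39 with a motif match in capitals, since they are the strongest CTCF region and the one with a match.
CTCF region beside 4931408D14Rik, chr19:37243267-37243466: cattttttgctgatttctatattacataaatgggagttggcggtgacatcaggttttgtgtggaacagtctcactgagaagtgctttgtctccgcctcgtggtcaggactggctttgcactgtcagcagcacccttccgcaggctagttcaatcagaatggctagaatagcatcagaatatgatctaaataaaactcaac
CTCF region in Ide, chr19:37338358-37338557: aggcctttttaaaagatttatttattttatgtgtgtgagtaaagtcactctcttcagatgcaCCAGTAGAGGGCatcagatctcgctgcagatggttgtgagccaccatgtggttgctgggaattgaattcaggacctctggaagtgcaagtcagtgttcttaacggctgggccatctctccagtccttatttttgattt

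The match lay at chr19:37338420-37338431, 32 bases before the middle of the window. The CTCF region in Ide had a summit pileup of 14.3, 10.3 and 14.7 in wild type and 21.1, 19.3 and 23.9 in humanized replicates, in multiples of the genome-wide background. The region beside 4931408D14Rik had 90.1, 66.4 and 70.9 against 95.3, 103.3 and 103.7. In both, every humanized list was above every wild type one, as in 6 of 6 regions over the intervals, against 0.626% of 41662 regions of the genome. The median log2 ratio of pileup was 0.66 (0.42 to 0.73), against -0.05 within 1 Mb outside.

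Column 7 of CTCF overlapped between genotypes in 6 of 6 regions (median log2 ratio -0.05), where 8.3% of regions were lower and 1.69% higher without overlap. The local background of CTCF had a median of 0.80 and was higher without overlap in 4 of 6, against 4.99%. Its median within 1 Mb outside was 0.05.

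The intervals were read against the peaks next to their edges, since their ends are the boundary of the choice. Just left of the second interval, an H3K27ac region 4734 bp away at E17.5 had a log2 ratio of 0.67 in pileup and 0.60 in background. That pileup ratio was the highest of all 31816 H3K27ac regions of the stage, where the highest in the intervals was 0.38. At E11.5 the regions 6276 and 5213 bp away had 0.98 and 1.35 in pileup and 0.64 and 1.03 in background, where all H3K27ac regions of that stage had a median of 0.26 in pileup. The pileup ratio of 1.35 was the highest of all 19469 regions, where the highest in the intervals was 1.03. For H3K4me3 farther out, the region 9965 bp away at E17.5 had -0.20 in pileup and 0.14 in background. The one 9951 bp away at E11.5 had 0.37 and 0.11. That pileup ratio was the highest of the 25 H3K4me3 regions within 1 Mb outside, where all regions of that stage had a median of -0.06. Where the difference ends on this side is therefore not read. Left of the first interval, the H3K27ac region 4417 bp away at E17.5 had -0.10 in pileup and 0.12 in background. Right of the second interval, a CTCF region 38066 bp away had -0.05 and 0.21.

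**Figure D5:**
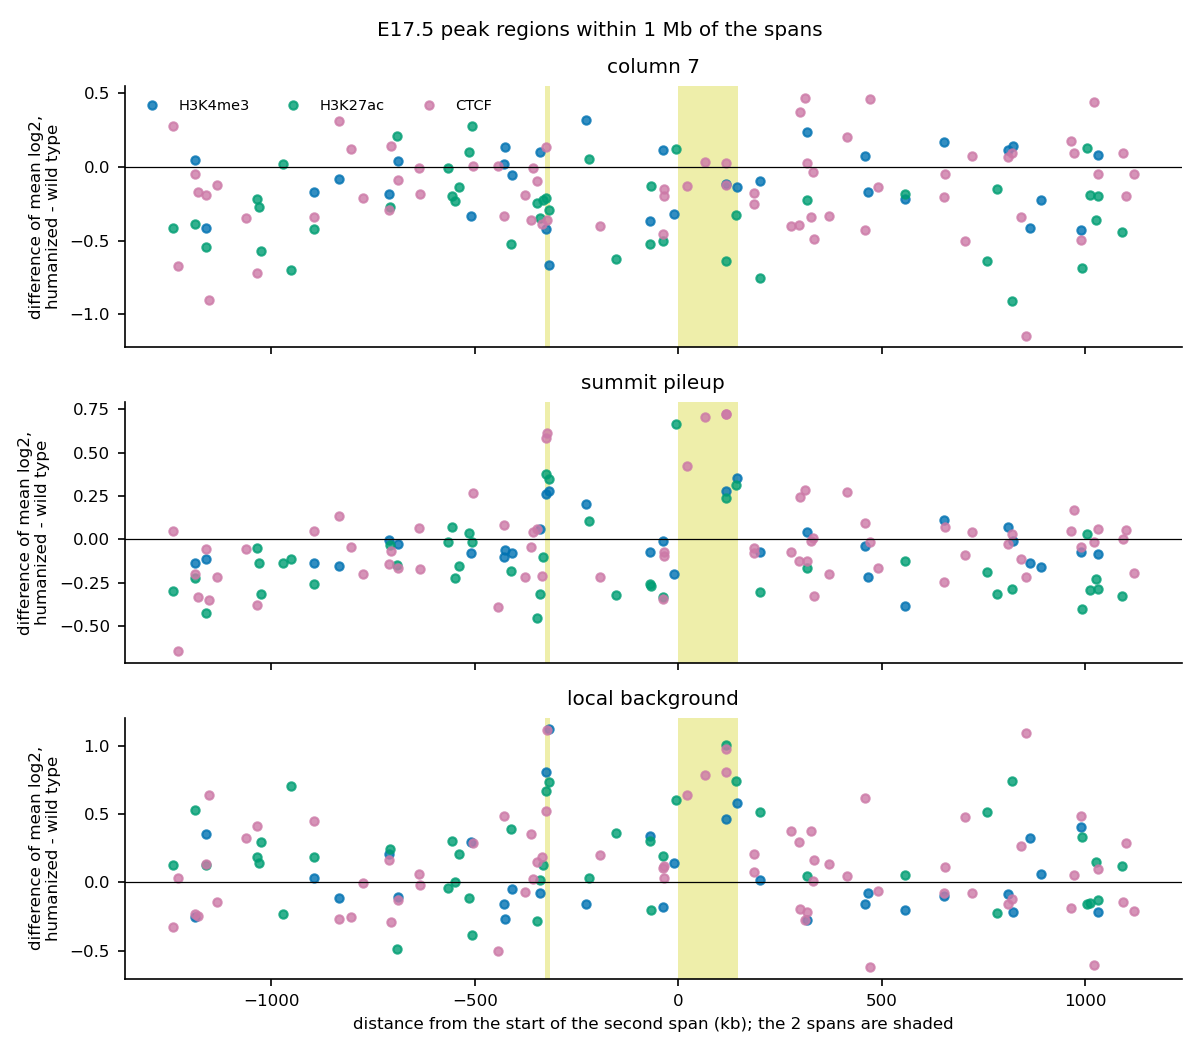
Difference of mean log2 values, humanized minus wild type, of column 7, summit pileup and local background for E17.5 peak regions called in every list within 1 Mb, by distance in kb from the start of the second interval (intervals shaded). In the intervals the pileup and background points of all 3 marks lie above 0, with medians of 0.28 and 0.69 for H3K4me3 and 0.66 and 0.80 for CTCF, and outside the intervals the medians are -0.08 and -0.08 for H3K4me3 and -0.05 and 0.05 for CTCF. An H3K27ac region just left of the second interval has the highest pileup value of that mark, 0.67.

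H3K27me3, which did not set the intervals, covered little of them. At E11.5 each list had 1 peak within Ide, 1152 to 1891 bp from its start, covering 504 and 425 bases in wild type and 1013 and 1277 in humanized replicates. The means were 464.5 ± 55.9 and 1145 ± 187 bases (SD, n = 2), which did not overlap. Summed over chromosome 19, peaks covered 2004005 and 1575027 bases in wild type and 2018776 and 2262624 in humanized replicates, which did not overlap either. For the bases in the intervals the exact permutation test gave p = 0.333, the smallest it can give with this number of replicates. At E17.5 wild type replicate 1 had 1318 bases and the other 5 lists had 0 (exact permutation p = 1, smallest possible 0.1). That library had the most H3K27me3 peaks of the stage, 43700 against 19193 to 33223.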

How the data were processed

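Diencephalon RNA-seq and ChIP-seq files of hs754-humanized and wild type embryos were analysed. The members and the gene lists were chosen with earlier results of these data known. Per the labels and the study's methods, the authors aligned RNA reads with STAR (2.7.9a) to mm39 with GENCODE M31 basic genes and deposited raw counts per gene in unstranded, sense and opposite-strand columns. The unstranded column was the main one. Reads on no gene (48.1% to 58.4%) were left out. Of 56923 genes, 56236 had their ID in GENCODE release 39 (GRCm39, the same build), which gave coordinates and exonic lengths. The authors aligned ChIP reads with Bowtie2 (2.4.2), took out duplicates and multimapping reads, and ran MACS2 (2.2.7.1) on every replicate separately. The deposited peak files hold the fold enrichment at the summit (column 7), −log10 p and −log10 q values and a display score. Chromosome 13, shifted in the humanized genome, was left out genome-wide. The control library behind the local background is not given in the sources used here, and the 24 input samples were not analysed here. The labels name a shared E17.5 input for H3K4me3, H3K27me3 and CTCF. The local backgrounds of H3K4me3 and CTCF at that stage may therefore not be separate measurements, which was not tested. The H3K27ac antibody lot also bound another acetylated histone peptide.

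Counts were tested with edgeR (4.0.16, quasi-likelihood, TMM, filterByExpr, Benjamini-Hochberg adjusted p under 0.05 over all genes) in R (4.3.3), with 4 against 4 libraries. The interaction used all 16 libraries. DESeq2 (1.42.0) was an alternative. CPM used TMM-scaled library sizes. Peaks of a mark and stage were merged where they shared a base, and the regions present in all lists were compared by the difference of the genotypes' mean log2 values, called the log2 ratio. Summit pileup and local background were recovered from column 7 and the p-value column with MACS2's pseudocount of 1. In each of 26 narrow lists 100% of peaks gave a whole fragment number within 0.05, at genome-wide backgrounds of 2.16 to 3.58 fragments, whose counting error limits each value. This step, the opposite-strand counts and the long-gene index were added after the data were seen. The scripts were tested on simulated data. There, edgeR called 71.6% of the genes given a 2-fold change at E11.5 and 10.4% at E17.5. A missing genotype call at E17.5 therefore does not show that a gene was unchanged.

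Named genes were the 7 members, the nearest tested protein-coding genes between and outside the intervals, the 5 genes most correlated with Ide, and up to 2 genes of each pathway list by size of the E17.5 change. Alternatives were another normalization, no filter, the sense column, all 16 samples in 1 fit, a replicate block, stricter peaks, another overlap, rescaled lists and each replicate left out.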

Additional observations from a re-analysis of the deposited data

Results flagged for a closer look

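The opposite-strand column of the count files, which no main comparison used, held 3 signals above the wild type level. For Fgfbp3 at E11.5 the log2 fold change was 2.04 (edgeR adjusted p = 0.00055), with 121 to 210 reads in humanized and 21 to 51 in wild type libraries. It was higher in 4 of 4 humanized libraries than in every wild type one and was called in each of the 9 alternatives run, at 1.78 to 2.27 (adjusted p = 0.000187 to 0.00685). For 4931408D14Rik at E17.5 the log2 fold change was 4.21 (edgeR adjusted p = 0.522), with 22 to 29 reads in humanized libraries and 0 in 3 of the wild type libraries. For Ide at E17.5 it was 3.101 (edgeR adjusted p = 0.624), with 15 to 40 reads against 1 to 12. Both missed the adjustment over 6100 genes, and the Ide reads were few beside the 6511 to 11760 reads of the gene summed over a genotype. Both also passed the filter on low counts through their humanized libraries, which favoured a high value. Which transcripts the reads came from was not tested.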

How the results depend on the processing

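Over the alternatives run, 570 RNA values and 95 ChIP values kept their direction and their side of the threshold or stayed within the replicate spread. Of the others, 19 RNA values reversed, 4 moved and 2 became called, and 13 ChIP values moved and 4 reversed. At E17.5 DESeq2 called 1 member, 4931408D14Rik (log2 fold change 2.63), against 0 in edgeR, and over all genes it called 1 at E17.5 and 2 at E11.5. The fit with all 16 samples called 1 at E11.5. The study, also with DESeq2, reported 2 genes, both at E11.5 and neither a member, so the E17.5 call differs from its result. The cause was not tested. The replicate numbers did not pair the samples (correlation of same-numbered deviations at E11.5, 0.03 to 0.11; for E17.5, 0.05 to 0.48). With the replicate number as a block, member medians were 0.30 (E11.5) and 0.83 (E17.5), and 0 members were called at either stage, 0 for the interaction and 2 for stage. Of the 8 wild type libraries, replicates 1 and 2 of E17.5 correlated best with the humanized library of their own number and the other 6 with another. With the long-gene index as a covariate, added after the data were seen, E17.5 values were 0.60 for Btaf1, 0.88 for Ide, 2.15 for 4931408D14Rik and 0.06 for Kif11, and Kif11 at E11.5 reversed to 0.39. Other reversals were of values near 0. For the interaction of Fgfbp3 the sense column gave 0.084. For the stage change of Btaf1, DESeq2 gave 0.024, DESeq2's size factors in edgeR 0.046, the sense column 0.0069 and all 16 samples 0.00096. With 1 replicate left out, E11.5 values ranged from -0.15 to 0.26 for Btaf1 and -0.50 to 0.050 for Kif11, interactions from -0.19 to 0.087 for Fgfbp3 and -0.28 to 0.15 for Rpl10-ps6, and the Btaf1 stage change from -0.17 to 0.26.

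For the peaks, with 1 replicate left out, medians over the intervals ranged at E11.5 from -0.34 to -0.23 for H3K4me3 column 7, 0.32 to 0.59 for its background, 0.0050 to 0.33 for H3K27ac column 7 and 0.66 to 1.09 for its pileup. At E17.5 they ranged from -0.57 to -0.029 for H3K27ac column 7, where the highest is without humanized replicate 3, from -0.20 to 0.045 for CTCF column 7, whose sign is therefore not read, and from 0.79 to 0.94 for CTCF background. With lists shifted to the same median, CTCF column 7 was 0.083, and H3K27ac pileup 0.61 at E11.5 and 0.55 at E17.5. H3K27ac column 7 was then 0.071 at E11.5 and -0.055 at E17.5. H3K27me3 bases at E17.5 differed by -659 to 0 with 1 replicate left out, the 0 without wild type replicate 1, and by 0 with the stricter peaks.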
